A study of Mus musculus with 2 samples.

Results

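The complement system was read here through 37 mouse genes for its components and regulators, matched by symbol in the gene quantification of both embryonic liver libraries. They were 37 of 55536 annotated genes and 37 of 22028 protein-coding genes, and all 37 were found. They were sorted into 9 roles: classical recognition, lectin recognition, initiating proteases, convertase components, alternative pathway, terminal pathway, soluble regulators, membrane regulators and anaphylatoxin receptors.

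Complement is a cascade of plasma proteins in which recognition molecules bind a surface, associated serine proteases become active, and convertases built from C2, C3, C4 and factor B cleave C3 and then C5. The fragments coat the target, call in leukocytes through the anaphylatoxin receptors, and end in a membrane pore made of C5b to C9, while soluble and membrane-bound regulators hold the cascade back on host cells. Hepatocytes are the main adult source of most of these proteins, whereas C1q and properdin come largely from myeloid cells.

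The libraries were polyA RNA-seq of whole liver from healthy B6NCrl embryos of 12.5 days, males and females pooled, with no genotype or treatment difference. They formed a single group of 2 libraries, named as biological replicates, from pools of 120 embryos (replicate 1) and 88 embryos (replicate 2). Each library started from 10 ng of RNA with ERCC spike-in RNAs added. With 1 group there was no contrast to test, so every result is a level, a share or a ratio, given as mean ± SD over n = 2 libraries. The SD measures only the spread between these pools.

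The libraries held 38293265 and 35399872 expected counts, and the complement genes took 54104 and 49347 of them. That was 0.145% and 0.144% of the counts of annotated genes. At this stage the liver is also the site of blood formation, and the erythroid markers were the most abundant of all marker lists, led by Hbb-bs and Hba-a1. All 10 hepatoblast markers were at or above 1 TPM (transcripts per 1000000, a level corrected for gene length and for the size of the library) with a median of 191 ± 0.799 TPM, led by Afp and Alb. None of 7 mature hepatocyte markers reached 1 TPM, and the highest, Tdo2 and Pck1, stood at 0.12 and 0.115 TPM on average. Values refer to whole tissue, in which fewer cells of a type and less RNA per cell cannot be told apart.

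Most of the 37 complement genes were transcribed in the embryonic liver. At or above 1 TPM were 29 of 37 genes (78.4%), beside 54.3% of all protein-coding genes. At or above 10 TPM were 19 of 37 (51.4%), beside 32.1%. Only Vtn passed 100 TPM, which is 2.70% of the members beside 5.38% of protein-coding genes. The median complement gene stood at 10.4 ± 0.834 TPM, and the median protein-coding gene at 1.81 ± 0.0177 TPM. The summed level of the 37 genes was 888 TPM in replicate 1 and 875 TPM in replicate 2. Vtn alone supplied 20.4% of this sum, the 5 highest genes (Vtn, C3, Cfi, Cfb and Cd59a) 53.1%, and the 10 highest 76.4%.

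**Figure D1:**
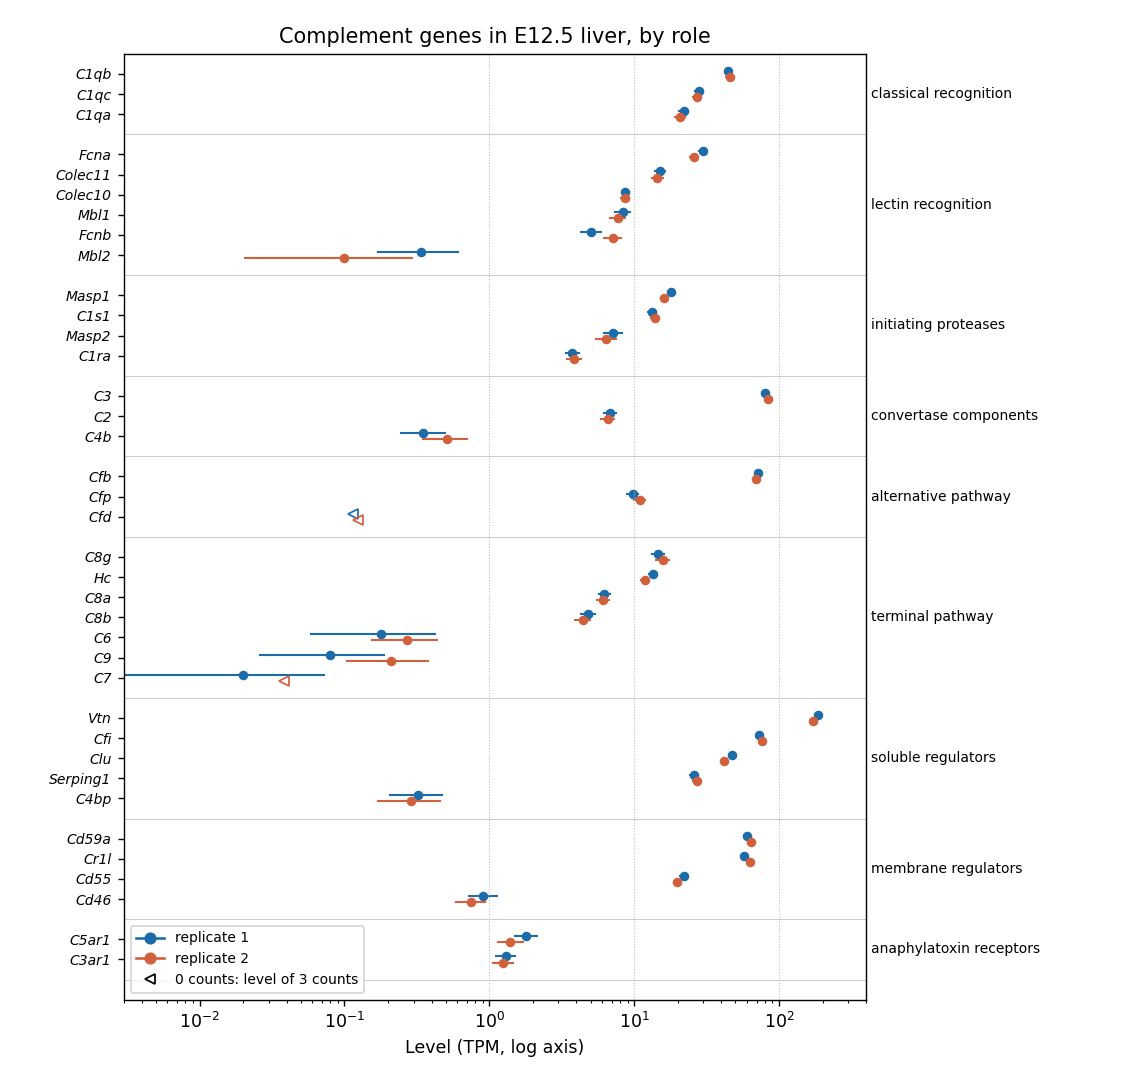
Level of each complement gene in TPM on a log axis, grouped by role, with replicate 1 in blue and replicate 2 in orange. Points are the level in each library, bars are 95% Poisson intervals for counting error only, and open triangles mark the level of 3 counts where a library had 0 counts. Cfd had 0 counts in both libraries, C7 had 2 and 0, and 29 of 37 genes lay at or above 1 TPM.

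By role, the regulators stood highest. The 5 soluble regulators had a median of 44.5 ± 3.67 TPM and the 4 membrane regulators 40.6 ± 1.10 TPM. The 3 chains of C1q followed at 27.7 ± 0.580 TPM, the alternative pathway at 10.4 ± 0.834 TPM and the initiating proteases at 10.2 ± 0.0495 TPM. In the quantification against the older annotation GENCODE M4 the median of the initiating proteases was 8.76 TPM, below the 9.31 TPM of lectin recognition there. All these medians use whole genes. Most Masp2 transcript TPM belonged to a short form without the protease domain, and the protease form Masp2-201 had 0.55 and 0.44 TPM. The median of the initiating proteases is therefore not that of protease-coding transcripts. Lower medians were those of lectin recognition (8.34 ± 0.219 TPM), convertase components (6.71 ± 0.198 TPM), the terminal pathway (4.61 ± 0.255 TPM) and the anaphylatoxin receptors (1.43 ± 0.159 TPM). Every role except classical recognition, the initiating proteases and the receptors held at least 1 gene below 1 TPM. The terminal pathway held 3 such genes and the other roles 1 each.

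C1q, the recognition molecule of the classical pathway, is built from equal numbers of A, B and C chains, and tissue macrophages are its best known source. C1qa measured 22.0 TPM in replicate 1 and 20.7 TPM in replicate 2. C1qb was at 44.6 and 45.7 TPM, and C1qc at 28.1 and 27.3 TPM. The order C1qb, C1qc, C1qa was the same in both libraries and the chains did not overlap. C1qb exceeded C1qa 2.12 ± 0.123 times, and C1qc exceeded C1qa 1.30 ± 0.0258 times. Of 9 macrophage markers 8 were at or above 1 TPM, with a summed level of 168 and 166 TPM, led by Lyz2 (98.6 ± 3.09 TPM) and Csf1r (17.2 ± 0.926 TPM), and Cd163 stood at 0.04 and 0.05 TPM. How far the C1q chains follow the macrophages of the tissue was not tested.

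Lectin recognition relies on collectins and ficolins, which bind sugars on microbes and damaged cells. The most abundant was Fcna, encoding ficolin A, at 29.9 and 25.8 TPM. Colec11, encoding collectin kidney 1, measured 15.1 and 14.5 TPM, and Colec10, encoding its partner collectin liver 1, measured 8.66 TPM in both libraries. These collectins form a mixed complex, and Colec11 exceeded Colec10 1.71 ± 0.0506 times.

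The mannose-binding lectins, which are abundant products of adult liver, were far apart. Mbl1 was at 8.33 and 7.71 TPM. Mbl2 was at 0.34 and 0.10 TPM, from 11 and 3 counts, so Mbl1 stood well above it in both libraries while the size of that gap rests on very few counts. Fcnb, encoding ficolin B of myeloid cells, was at 5.05 and 7.13 TPM, higher in replicate 2, with the widest relative spread among the 29 genes at or above 1 TPM (coefficient of variation 24.2%, beside a median of 4.99%).

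The recognition molecules carry zymogen proteases that start the cascade. C1s1, for the protease of C1 that cleaves C4 and C2, measured 13.3 and 13.9 TPM. C1ra, for the protease that activates it, measured 3.75 and 3.84 TPM, lower by a factor of 3.58 ± 0.0535 although C1r and C1s are paired in equal numbers in the C1 complex. On the lectin side Masp1 was at 17.9 and 16.0 TPM and Masp2 at 7.16 and 6.41 TPM. Masp1 exceeded Masp2 2.50 ± 0.00915 times, but 1.49 ± 0.0386 times in the quantification against the older annotation GENCODE M4, where Masp1 was lower. These are levels of whole genes, so the ratio does not compare single proteases. Masp1-201 alone had 3.29 and 3.60 TPM, and Masp2-201, the full protease of Masp2, had 0.55 and 0.44 TPM.

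Both Masp genes encode more than 1 protein, and the transcript shares showed which forms led in embryonic liver. Masp1 (chr16:23449417-23520815, mm10, minus strand) encodes the proteases MASP-1 and MASP-3, which share their amino-terminal chain and differ in the protease domain. The domain of MASP-3 is known to lie in a single exon and that of MASP-1 to be spread over several. Masp2 (chr4:148602554-148615499, mm10, plus strand) encodes the protease MASP-2 and a short protein without a protease domain, called sMAP or MAp19. Coding sequence around the point where the forms part is printed because it shows which protein each transcript can make. Lower-case letters are the last 40 coding bases that both forms of a gene share, and capitals are the first coding bases from exons of that form alone, at most 80 of them.
Masp1-203: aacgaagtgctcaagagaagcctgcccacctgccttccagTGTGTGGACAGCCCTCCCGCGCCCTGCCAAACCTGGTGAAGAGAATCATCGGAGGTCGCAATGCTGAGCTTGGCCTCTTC
Masp1-201: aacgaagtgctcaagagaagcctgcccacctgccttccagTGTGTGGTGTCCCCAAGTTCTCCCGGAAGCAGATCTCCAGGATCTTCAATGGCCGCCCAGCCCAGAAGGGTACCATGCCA
Masp2-202: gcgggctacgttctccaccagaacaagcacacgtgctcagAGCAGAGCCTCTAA
Masp2-201: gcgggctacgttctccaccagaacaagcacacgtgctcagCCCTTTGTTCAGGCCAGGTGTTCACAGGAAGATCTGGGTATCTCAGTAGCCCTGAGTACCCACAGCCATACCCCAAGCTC
The sequences are those of the GENCODE M21 transcripts, read 5′ to 3′ on the gene's own strand.

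The Masp1 forms share 10 coding exons with 1318 coding bases. Masp1-203 then has 884 coding bases of its own, stop codon included, in 1 exon, of which chr16:23469850-23470730 is the coding part without the stop codon, the layout of MASP-3, and encodes 733 residues. Masp1-201 has 797 coding bases of its own in 6 exons, of which the first is chr16:23465028-23465165, the layout of MASP-1, and encodes 704 residues. The Masp2 forms part after 4 shared coding exons with 544 bases. The whole coding end of Masp2-202 is the 14 bases printed in capitals, which end in a stop codon, giving a protein of 185 residues, whereas Masp2-201 goes on through 7 more coding exons to 685 residues.

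Masp1-203 led its gene with 13.1 TPM in replicate 1 and 10.5 TPM in replicate 2. Masp1-201 had 3.29 and 3.60 TPM. The MASP-3 type transcript thus made up 69.4 ± 5.22% of Masp1 transcript TPM and the MASP-1 type 20.5 ± 2.97%, a ratio of 3.44 ± 0.755, and both libraries gave the same order. In expected counts the order was also the same, with 1577 and 1168 counts for Masp1-203 against 563 and 572 for Masp1-201. Almost none of this sequence occurs in other genes. No stretch of 50 bases of Masp1-203 that Masp1-201 lacks was present in annotated transcripts of another gene. Of those in Masp1-201 that Masp1-203 lacks, 0.434% were. Overlap with the remaining Masp1 transcripts, Masp1-202 and Masp1-204, was not counted.

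Masp2 was led by its short form. Masp2-202, without the protease domain, had 5.70 and 4.93 TPM, and Masp2-201, the full protease, had 0.55 and 0.44 TPM. The short form held 78.3 ± 1.99% and the protease form 7.28 ± 0.586% of Masp2 transcript TPM, and a transcript with a retained intron, Masp2-204, held 12.6% and 16.2%. Counted in reads the gap was smaller, 119 and 95.4 expected counts against 53.6 and 39.1, because TPM divides by a length that is 738 bases for Masp2-202 and 3058 bases for Masp2-201. The gap also rests on reads that are hard to place. Of the 50-base stretches that set Masp2-201 apart from Masp2-202, 69.1% also occur in transcripts of Tardbp, a gene of the opposite strand with 187 ± 2.78 TPM, and 771 stretches remain that are in no other gene. How many Masp2-201 reads were assigned to Tardbp, or the reverse, was not tested. Another transcript with a retained intron, Masp2-203, received 0 counts in both libraries. Its posterior SD, a deposited measure of uncertainty in dividing reads, was 14.3 and 8.04 counts. That of Masp2-202 was 14.6 and 9.67 counts, so the division of reads among the Masp2 transcripts was itself uncertain.

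**Figure D2:**
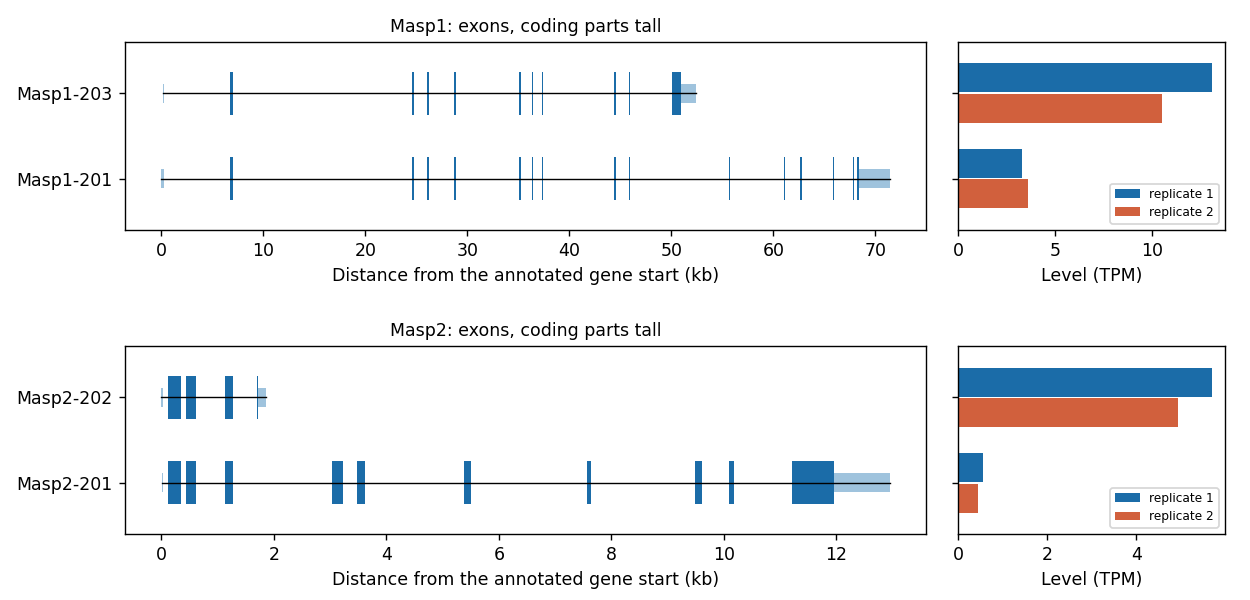
Left, exons of the protease-type and short transcripts named in the text for Masp1 and Masp2 by distance in kb from the annotated gene start, with coding parts tall and dark and non-coding parts low and pale. Right, bars give the level of each transcript in TPM from 0, replicate 1 in blue and replicate 2 in orange: Masp1-203, with a single long last coding exon, had 13.1 and 10.5 TPM against 3.29 and 3.60 for Masp1-201, and Masp2-202 had 5.70 and 4.93 TPM against 0.55 and 0.44 for Masp2-201.

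C3, on which all pathways converge, was the second highest complement gene, with 79.8 TPM in replicate 1 and 83.8 TPM in replicate 2, from 11954 and 11025 counts. The other parts of the classical convertase were much lower. C2, for its catalytic subunit, measured 6.85 and 6.57 TPM, and C3 exceeded it 12.2 ± 0.789 times. C4b, for the subunit that anchors the convertase to its target, measured 0.35 and 0.51 TPM from 33.6 and 34.3 counts, and C3 exceeded it 228 times in replicate 1 and 164 times in replicate 2. The coding transcript C4b-201 had 0.17 TPM in both libraries. C4b-203, with a retained intron, had 0.17 and 0.33 TPM from 3.69 and 6.54 counts, so the size of the gap to C3 is uncertain. Both C3 and C2 were thus present in each library while C4b stayed under 1 TPM.

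The alternative pathway uses factor B in place of C2. Cfb measured 71.3 and 69.8 TPM, close to C3, which exceeded it 1.16 ± 0.0576 times. Cfp, encoding properdin, which stabilises that convertase, was at 9.78 and 10.96 TPM. Factor D, the protease that cleaves factor B, is made chiefly by fat tissue, and its gene Cfd had 0 counts in both libraries, which allows up to 0.115 TPM in replicate 1 and 0.124 TPM in replicate 2 at the level of 3 counts. In blood MASP-3, the product type of the leading Masp1 transcript, is the protease known to mature factor D.

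The terminal pathway was split into expressed and nearly absent subunits. Hc, encoding C5, measured 13.4 and 11.8 TPM. The 3 chains of C8 were all present, with C8g, a lipocalin bound to the alpha chain, at 14.6 and 15.7 TPM. C8a and C8b, which encode the pore-forming chains, were at 6.22 and 6.10 TPM and at 4.79 and 4.43 TPM. As whole genes, C8a exceeded C8b 1.34 ± 0.0555 times and C8g exceeded C8a 2.46 ± 0.159 times. The C8a level included 2.27 and 2.33 TPM of C8a-204, which is not annotated as coding. Its leading coding transcript, C8a-202, had 2.82 and 3.77 TPM, below C8b-201 with 4.61 and 4.43 TPM. The order of C8a over C8b therefore did not hold for the leading coding transcripts. C6, C7 and C9 encode the other pore subunits and all lay below 0.5 TPM in each library. C6 was at 0.18 and 0.27 TPM from 5 and 16 counts. C9 was at 0.08 and 0.21 TPM from 5 and 11 counts, and C7 had 2 counts and 0. Of the 7 terminal genes 4 were therefore at or above 1 TPM, and the transcripts for a complete membrane pore were not all present at that level.

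Soluble regulators included the most abundant member. Vtn encodes vitronectin, an adhesion protein that also blocks insertion of the terminal complex, and it measured 187 TPM in replicate 1 and 172 TPM in replicate 2. Clu, encoding clusterin, which acts at the same step, was at 47.1 and 41.9 TPM. Cfi, encoding the protease that inactivates C3b and C4b, was at 72.6 and 75.9 TPM. Its level was close to that of C3 and Cfb. Serping1, encoding the C1 inhibitor that blocks C1r, C1s and the MASPs, measured 25.8 and 27.0 TPM. C4bp, encoding a cofactor of factor I in C4b cleavage, was the exception at 0.32 and 0.29 TPM from 25 and 18 counts, so C4b and its binding protein were low together.

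Membrane regulators protect the cell that carries them. Cd59a, which stops C9 from joining the pore, measured 59.7 and 64.1 TPM. Cr1l, encoding the rodent regulator Crry, measured 57.6 and 62.9 TPM. Cd59a was above Cr1l in both libraries by less than the spread between them, and Cd55, encoding decay accelerating factor, followed at 22.0 and 19.8 TPM. Cd46, encoding membrane cofactor protein, which in mice is best known from sperm, was at 0.91 and 0.75 TPM. The erythroid markers summed to 105933 and 108906 TPM in the same tissue, and which cells carried the membrane regulators was not tested.

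The receptors for the C3a and C5a fragments, found on myeloid cells, were low. C5ar1 measured 1.79 and 1.40 TPM, and C3ar1 1.30 and 1.24 TPM. Along the whole order of the 37 genes, 11 of 36 neighbouring pairs overlapped between libraries, so ranks that differ by 1 place are often not separated by the spread.

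The number of transcripts in use was near that of genes in general. Among 24 members at or above 1 TPM with more than 1 annotated transcript, 14 had at least 2 transcripts that each held 10% or more of the gene's transcript TPM in both libraries, 58.3% of those compared, beside 60.8% of all protein-coding genes under the same limits. The leading transcript was annotated as coding in 24 of 24, beside 90.7% of those protein-coding genes, and in 20 of 24 (83.3%) it had the gene's longest coding sequence, beside 67.6%. In 8 of 24 (33.3%) a transcript not annotated as coding held 10% or more of TPM in both libraries, beside 33.4%. By shares of expected counts these were 5 of 24 (20.8%), beside 22% of those genes. In TPM Mbl1 divided nearly evenly between its coding transcript Mbl1-202 (51.6% and 49.2%) and Mbl1-201 (48.4% and 50.8%), which is annotated as a target of nonsense-mediated decay. In expected counts the coding transcript, the longer of them, led with 66.5% and 64.3% against 33.5% and 35.7%. Vtn-204, with a retained intron, held 30.5% and 27.3% of Vtn. Cfb was spread over 3 coding transcripts, of which Cfb-206 led with 45.3% and 46.5%. Another of them, Cfb-202, had 914 and 853 counts with a posterior SD of 272 and 190 counts, so its share is uncertain. Short transcripts weigh more in TPM than in counts: C8a-204, a processed transcript of 749 bases, held 36.5% and 38.2% of C8a in TPM but 9.84% and 10.2% in counts.

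**Figure D3:**
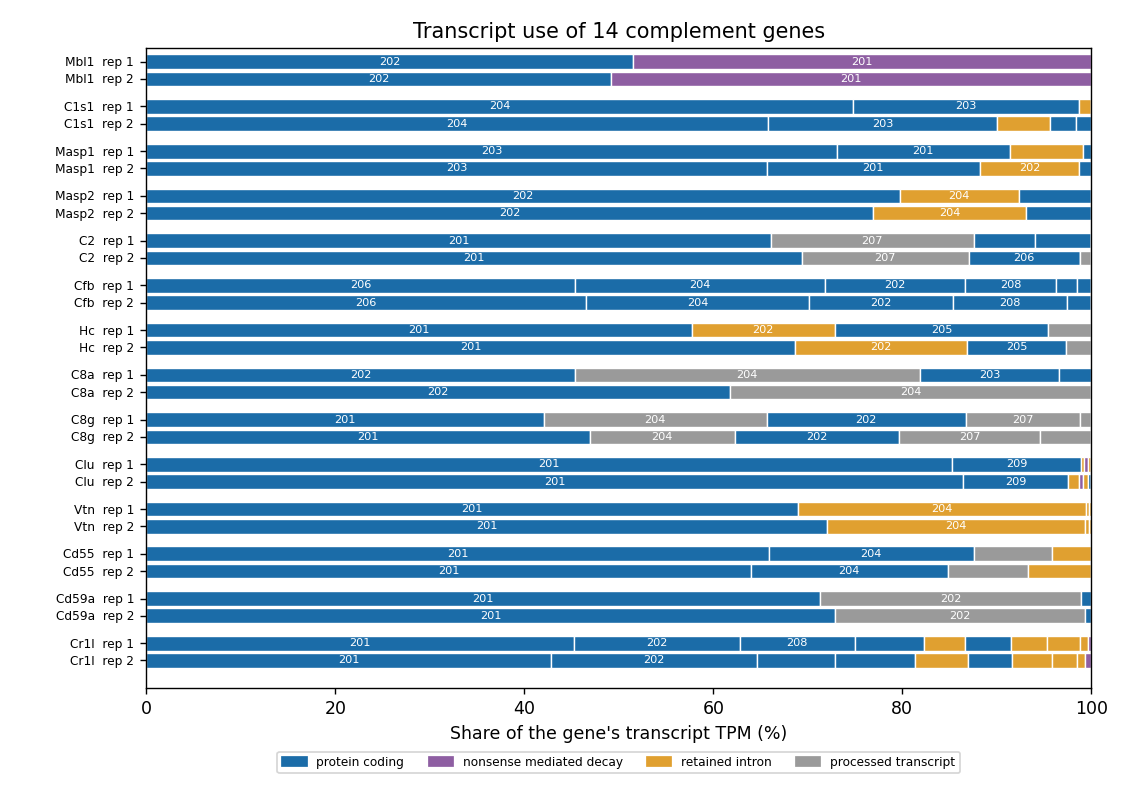
Share of each annotated transcript in its gene's summed transcript TPM, in percent, for the 14 complement genes with at least 2 transcripts at 10% or more in both libraries; 1 bar per library, colours by annotated type, numbers are the transcript suffix. Masp2 is filled mostly by the short form 202 (79.7% and 76.9%). Mbl1 divides nearly evenly in TPM between a coding form and one annotated for decay, whereas the coding form held 66.5% and 64.3% of expected counts.

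The level of Masp1 differed between annotations. The same reads were also quantified against GENCODE M4, an older annotation than M21. Of 29 members compared, only Masp1 differed more than 1.5-fold in the same direction in both libraries, 3.45% beside 5.51% of all genes compared. Under M4 Masp1 measured 10.9 and 10.1 TPM from 908 and 780 counts, whereas under M21 it measured 17.9 and 16.0 TPM from 2240 and 1853 counts. M4 lists 1 Masp1 transcript, with the identifier of Masp1-201, and M21 lists 4, so the MASP-3 type transcript was not in the M4 entry of this gene. The M4 transcript was also an earlier and shorter version, with an effective length of 2653 bases where Masp1-201 has 5345 bases in M21, and the parts of these changes in the difference cannot be told apart. Smaller count differences appeared for Mbl1 (257 and 225 counts under M4, 309 and 261 under M21) and for Cd46 (41 and 37 counts under M4, 84.0 and 79.0 under M21), which stayed within 1.5-fold in TPM.

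Sequence shared with other genes limits how some members can be read. In 11 of 37 more than 1% of their 50-base stretches also occur in another gene. The share of all genes past this limit was not counted, so whether 11 of 37 is unusual is not known. C1ra shared 50.8%, mostly with its copy C1rb, and C1s1 shared 35.1%, mostly with C1s2, but C1rb and C1s2 received 0 counts in both libraries. Cfb shared 73.0% and C2 41.5%, mostly with Gm20547, an annotated gene that spans both and also received 0 counts. C4b shared 34.6% with C4a, the sex-limited protein gene, which stood at 0.82 and 0.81 TPM from 20.4 and 22.7 counts, so C4a and C4b reads were both few. Cd55 and Cd59a shared less with Cd55b (9.12% over all other genes) and Cd59b (3.87%), which measured 0.12 and 0.03 TPM and 8.71 and 11.0 TPM. Cd46 shared 13.5% with A330023F24Rik, Cr1l 4.34%, mostly with Crry-ps, and C8g 1.18% with Dab1. The posterior SD of the count, the deposited measure of how uncertain the division of reads was, reached 5% of the count in 0 of 33 members with a mean count of at least 10, and in 528 of 14257 protein-coding genes. It was highest for C4b (4.71%) and Masp2 (3.37%). These values are for whole genes and leave out how reads were divided among the transcripts of a gene.

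The embryo pools were compared next. After scaling library sizes by the trimmed mean of M-values (TMM), 33 members had a mean expected count of at least 10, and their median log2 ratio of replicate 1 to replicate 2 was 0.02, beside 0.00 for all genes. Within 0.25 of 0 on the log2 scale lay 30 of 33 (90.9%), beside 75.7% of all genes. Past 2-fold was 1 of 33 (3.03%), beside 3.08% of all genes. That gene was C6, at a log2 ratio of -1.70 with a 95% exact binomial interval from -3.59 to -0.28, from 5 and 16 counts. In TPM, which divides by an effective length, C6 stood at 0.18 and 0.27, a smaller gap in the same direction.

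The counting interval left out 0 for 9 of the 33 (27.3%), beside 22.5% of all genes. Fcnb was lower in replicate 1, with 160 counts against 231 and a log2 ratio of -0.64 (interval -0.94 to -0.35). Fcna was higher in replicate 1, with 1186 counts against 926 and a log2 ratio of 0.24 (interval 0.12 to 0.37), so the ficolins went opposite ways. Neutrophil markers, on the same scaled counts, were lower in replicate 1 in 8 of 8 with a median of -0.22, and their summed level was 568 and 653 TPM, led by S100a8 (175 and 204 TPM) and Mpo (175 and 181 TPM). With scaling to the spike-ins 6 of 8 were lower, with a median of -0.11, and Fcnb stood at -0.52. Their part in the Fcnb difference was not tested. Macrophage markers had a median ratio of 0.08 and mesenchyme markers, lower in 6 of 6 (5 of 6 with spike-in scaling), of -0.16. Erythroid markers were lower in 5 of 6 (1 of 6 with spike-in scaling), with a median of -0.05. Hepatoblast markers were lower in 2 of 10 and macrophage markers in 3 of 8. The share of all genes that were lower in replicate 1 was not counted. Clu, Masp1, Cd55 and Vtn were higher in replicate 1, by 0.16, 0.16, 0.13 and 0.08 on the log2 scale. Cfi and Cd59a had log2 ratios of -0.07 and -0.11, which turned to 0.053 and 0.0048 when libraries were scaled to the spike-ins, and so have no settled direction.

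**Figure D4:**
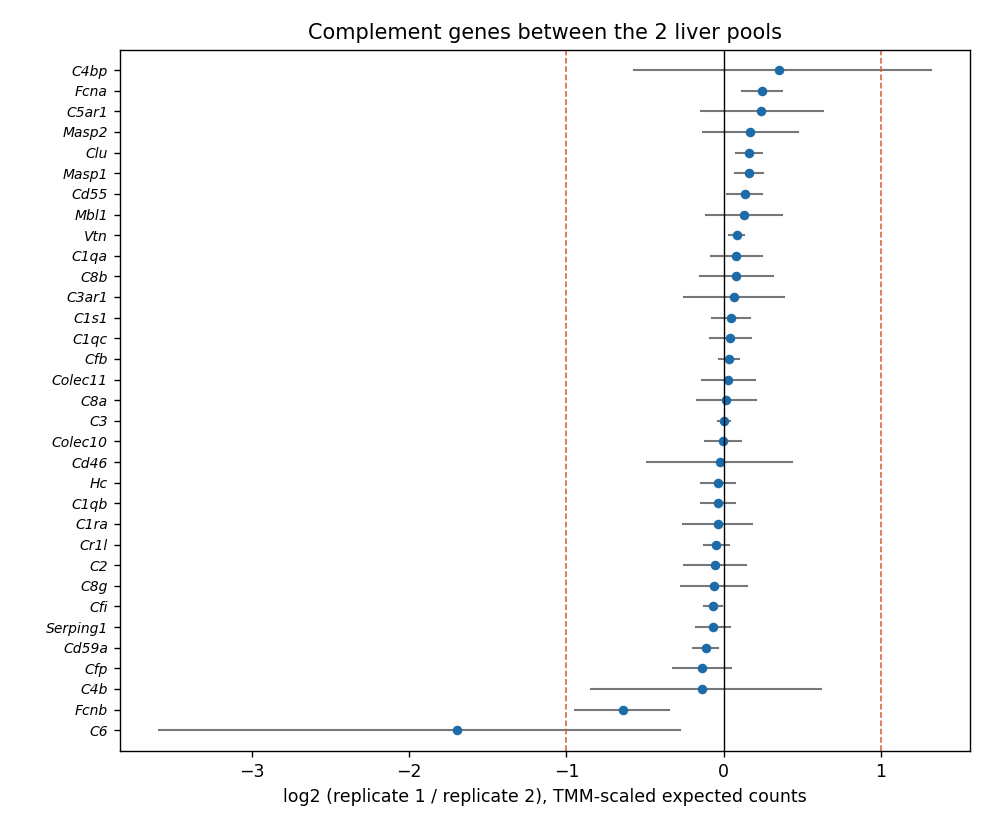
Log2 ratio of replicate 1 to replicate 2, from TMM-scaled expected counts, for the 33 complement genes with a mean count of at least 10. Points are the ratio, bars its 95% exact binomial interval for counting error only, and dashed lines mark 2-fold: C6 lies past the line at -1.70 with a wide interval, Fcnb follows at -0.64, and 30 of 33 lie within 0.25 of 0.

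Of a further 28 genes of the complement system, 14 were at or above 1 TPM (50%, beside 54.3% of all protein-coding genes). At or above 10 TPM were 4 (14.3%, beside 32.1%). Their median was 1.05 ± 0.0141 TPM, beside 1.81 ± 0.0177 TPM, so the higher shares of the 37 members did not extend to these genes. The highest was C1qbp, at 319 and 294 TPM, which encodes a mainly mitochondrial protein that also binds C1q. Cpn1, encoding the catalytic subunit of carboxypeptidase N, which inactivates anaphylatoxins, measured 38.5 and 35.8 TPM. Itgb2, the beta chain of complement receptors 3 and 4, was at 11.7 and 11.3 TPM, and Colec12, a membrane collectin, at 10.9 and 9.25 TPM. C1rb and C1s2, the copies of C1ra and C1s1 named above, were among those with 0 counts.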

How the data were processed

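Deposited expected counts and TPM were used, for polyA RNA-seq of 2 pools of embryonic liver. The expected counts are as deposited by the authors and divide reads among genes or transcripts, so they need not be whole. TPM, in which the authors corrected counts for effective length, and the posterior SD of each count were used as deposited. Per the labels, RNA was extracted with mirVana, cDNA made with SMARTer Ultra Low and libraries tagmented with Nextera. Aligner, quantifier, versions and strand setting: not given in the sources used here. Genes follow GENCODE M21 on mm10 and, for 1 comparison, GENCODE M4. Entries with bare numbers as identifiers (26248 of 81881) were left out, and spike-ins (4.99% and 5.40% of TPM) served only to scale.

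Levels, medians and ratios come from TPM in each library. Ratios between replicates used unrounded expected counts, a prior count of 0.5, a mean count of at least 10 and TMM sizes from edgeR 4.0.16, with sizes from DESeq2 1.42.0 as an alternative, and rounded counts for the exact binomial intervals. Intervals cover counting error only, and PCR copies were not told apart by molecular identifiers. Comparisons of annotations used a pseudocount of 1 TPM. The calculation of ratios was checked on simulated data. Sequence sharing was counted over 50-base stretches of the M21 transcripts, on either strand. All 37 members are named, of the 28 further genes the 4 highest, copies of members and up to 2 low ones, and of each marker list the 2 highest. Partners with shared sequence and the marker Cd163 were named after their values were seen. The members and lists were chosen with earlier results of these data known. Leaving out each library, other scalings, thresholds, filters, the posterior mean TPM and the older annotation were tried as alternatives. R 4.3.3, pandas 2.3.3 and matplotlib 3.10.9 were used.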

Additional observations from a re-analysis of the deposited data

How the results depend on the processing

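With 1 group, no call rests on a test. No paired analysis was possible because the libraries form 1 group. Leaving out either library leaves the other's value, and every count stayed within 1.5 times. The number of members past 2-fold between replicates, 1 as reported, was 4 with no filter beyond 1 count (Mbl2, C6, C7 and C9, the lowest detected genes), 2 at a limit of 1.5-fold (Fcnb and C6) and 0 with a mean count of at least 50, where C6 is not compared. The shares of all genes at these other settings were not counted. Scaling to spike-in counts moved the median log2 ratio of members from 0.02 to 0.14, and that of all genes from 0.00 to 0.12. It reversed the sign of the log2 ratio of Cfi, from -0.07 to 0.053, and of Cd59a, from -0.11 to 0.0048. Raising the transcript share from 10% to 20% gave 7 members with several transcripts in place of 14. How far the share of all protein-coding genes falls at 20% was not counted. For members at or above 1 TPM, the older annotation moved only Masp1 by more than 1.5 times. With it the Masp1 to Masp2 ratio was 1.49 in place of 2.50, and the initiating proteases (8.76 TPM) stood below lectin recognition (9.31 TPM). As shares of summed expected counts, an alternative chosen after seeing the data, Masp1-203 was at 66.7%, Masp1-201 at 28.0%, Masp2-202 at 57.4% and Masp2-201 at 24.7%. The posterior mean TPM gave 69.7% for Masp2-202 and 8.02% for Masp2-201. Depth limits Cfd, C7, C9, C6 and Mbl2, where single reads set the level.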

Other observations

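Several complement genes lie side by side in the genome, and some neighbours stood at very different levels. Cfb and C2, paralogues that serve the alternative and the classical convertase, are 85 bases apart on chromosome 17 on the same strand, with 70.6 ± 1.03 and 6.71 ± 0.198 TPM. C4b lies 112 kb away on the same strand at 0.43 ± 0.113 TPM. On chromosome 1, Cd46 and Cr1l are 5132 bases apart on the same strand, at 0.83 ± 0.113 and 60.2 ± 3.73 TPM, and Cd55 and C4bp are 172 kb apart at 20.9 ± 1.54 and 0.305 ± 0.0212 TPM. Those pairs on chromosome 1 place an abundant regulator within 200 kb of a scarce one.

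The C1q genes lie within a few kilobases on chromosome 4, 3616 bases between C1qb and C1qc and 2851 bases between C1qc and C1qa, at 45.1 ± 0.778, 27.7 ± 0.580 and 21.3 ± 0.870 TPM. C8b and C8a, 11130 bases apart on opposite strands of the same chromosome, stood at 4.61 ± 0.255 and 6.16 ± 0.0849 TPM. C6 and C7, 174 kb apart on chromosome 15, were both nearly absent, with mean levels of 0.225 and 0.01 TPM.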
